A study of Mus musculus with 24 samples.

Results

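The BMP receptors and Smads were followed through cultured mouse epidermal progenitor cells in which *Id1* was silenced or ID1 was induced, before and after calcium. They were chosen by name: the receptor genes *Bmpr1a*, *Bmpr2* and *Acvr1*, the receptor-regulated Smads *Smad1* and *Smad5*, the common Smad *Smad4*, and the inhibitory Smads *Smad6* and *Smad7*. Of these 8 genes, 7 had a row in a table of 10818 genes and were analysed, and *Smad6* was not analysed here. Bone morphogenetic proteins (BMPs) bind a complex of type I receptors (encoded by *Bmpr1a* and *Acvr1*) and type II receptors (such as that of *Bmpr2*), and the type I receptor kinase phosphorylates SMAD1 and SMAD5. The phosphorylated Smads pair with SMAD4 and enter the nucleus, where the *Id* genes are among their best known direct targets. SMAD7 is itself switched on by the pathway and by TGF-beta, and it blocks the receptors in a negative feedback loop, while in the epidermis BMP signalling is known for its part in differentiation and hair follicle development.

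The cells were primary wild-type (WT) keratinocytes taken from newborn pups and grown with mouse 3T3-J2 fibroblast feeder cells, each carrying a lentiviral construct kept by puromycin selection. There were 8 groups of 3 libraries of poly(A) RNA. Cells with an inducible ID1 construct were treated with doxycycline for 3 days (+dox) or left without it (-dox). Cells of the second experiment carried a short hairpin RNA against *Id1* (*shId1*) or a scrambled hairpin (*shScr*). The *shScr* values come from the 6 columns named H2BGFP, a name absent from the sample labels, which were taken as *shScr* because the study's hairpin vector carries this reporter and the other columns name the other groups. Each population was sampled after 24 h in high calcium, which makes keratinocytes differentiate, and as undifferentiated progenitors at 0 h. ID1 binds basic helix-loop-helix (bHLH) transcription factors and keeps them from DNA. No cells received doxycycline without the construct and none stayed in low calcium for 24 h, so an effect of ID1 cannot be told apart from one of doxycycline, nor one of calcium from one of the added day in culture.

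Values are read counts divided by a library size that was scaled by TMM (trimmed mean of M values), given as RPM, and are not divided by gene length. The 18 libraries whose reads could be recovered held 21442371 to 30353746 reads in the table, and in them the 7 genes had between 173 (*Smad7*) and 5163 (*Bmpr1a*) reads. All 10 basal keratinocyte markers listed were in the table, with summed values of 25930 to 61170 per library, beside 9 of 13 suprabasal markers, 4 of 18 fibroblast markers, 1 of 6 melanocyte and 1 of 5 endothelial markers. Libraries of a group correlated with r between 0.976 and 0.996 on the log2 scale. In the shRNA experiment the libraries numbered 1 stood apart from the other two of their group (r of 0.976 to 0.990, against 0.993 to 0.996 between the others), and in +dox cells at 24 h replicate 3 did (0.983 and 0.989, against 0.994). Results that rest on these libraries are given without them too. In bulk RNA, fewer cells of a type and less RNA per cell cannot be told apart.

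RefSeq promoter windows (GRCm38.p6, 250 bases before to 50 after a start site) were matched by symbol for 5 of the 7 genes. Stretches of these windows outside annotated exons, that of *Bmpr1a* within an intron of longer transcripts, are shown for *Bmpr1a*, the receptor whose level moved furthest, and for *Smad1* and *Smad5*, whose ratio was lower after calcium, a choice made after their values were seen. Matches on either strand to 3 motifs are in capitals: GTCT, the core Smad-binding box, GGCGCC, a GC-rich element bound by SMAD1 and SMAD5, and CANNTG, the E-box of the bHLH factors.
*Bmpr1a*, chr14:34502688-34502796, minus strand: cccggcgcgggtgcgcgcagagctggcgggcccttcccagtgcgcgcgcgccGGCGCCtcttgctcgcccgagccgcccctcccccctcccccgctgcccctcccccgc
*Smad1*, chr8:79399519-79399678, minus strand: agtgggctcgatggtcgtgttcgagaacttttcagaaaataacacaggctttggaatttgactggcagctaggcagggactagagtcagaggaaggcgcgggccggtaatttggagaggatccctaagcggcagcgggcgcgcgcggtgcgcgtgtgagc
*Smad5*, chr13:56702850-56703009, plus strand: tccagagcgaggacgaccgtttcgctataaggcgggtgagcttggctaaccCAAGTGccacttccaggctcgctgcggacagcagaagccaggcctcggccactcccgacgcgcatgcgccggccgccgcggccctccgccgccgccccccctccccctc
Over the full windows of 300 bases, GTCT or its reverse complement was present in 88.0% of 32851 mouse promoters, GGCGCC in 11.9% and CANNTG in 72.3%. GGCGCC was present in the windows of *Bmpr1a*, *Bmpr2* and 2 of the 3 start sites of *Smad5*. The *Smad1* window held none of the 3 motifs, and that of *Acvr1* only the Smad-binding box. A match describes these letters only, and motifs were not searched outside the windows.

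The genes lie apart in the genome (GRCm38, GENCODE M21). *Bmpr1a* lies on chromosome 14 (34410734 to 34503341, minus strand), *Bmpr2* on chromosome 1 (59763400 to 59879014, plus strand) and *Acvr1* on chromosome 2 (58388644 to 58567157, minus strand). *Smad1* is on chromosome 8 (79338395 to 79399518, minus strand) and *Smad5* on chromosome 13 (56703010 to 56742377, plus strand). *Smad4* (73639009 to 73703780, minus strand) and *Smad7* (75367529 to 75395935, plus strand) share chromosome 18. All 7 are protein coding genes.

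Per kb of annotated exon, *Smad4* was the most abundant of the 7 transcripts in all 8 groups and *Bmpr1a* the second. In *shScr* progenitors at 0 h the mean levels per kb were 35.1 for *Smad4*, 21.9 for *Bmpr1a*, 12.7 for *Smad5*, 7.86 for *Acvr1*, 4.81 for *Bmpr2*, 4.29 for *Smad1* and 3.82 for *Smad7*. The ranges of the first 5 did not overlap there, whereas *Smad1* overlapped with *Bmpr2* above it and with *Smad7* below it. After 24 h in calcium the order tightened in the ID1 cells. In -dox cells at 24 h *Bmpr1a* stood at 8.70 per kb, close above *Smad5* (7.04) and *Acvr1* (6.56), whose ranges overlapped, and *Smad4* was still at 33.2. *Smad7* had the lowest mean in every group, with 1.66 per kb in -dox cells at 0 h and 3.82 in *shScr* cells at 0 h as its extremes. Since all annotated exons were joined to give the length (17983 bases for *Bmpr2*), exons that these cells do not use lower a level per kb.

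**Figure D1:**
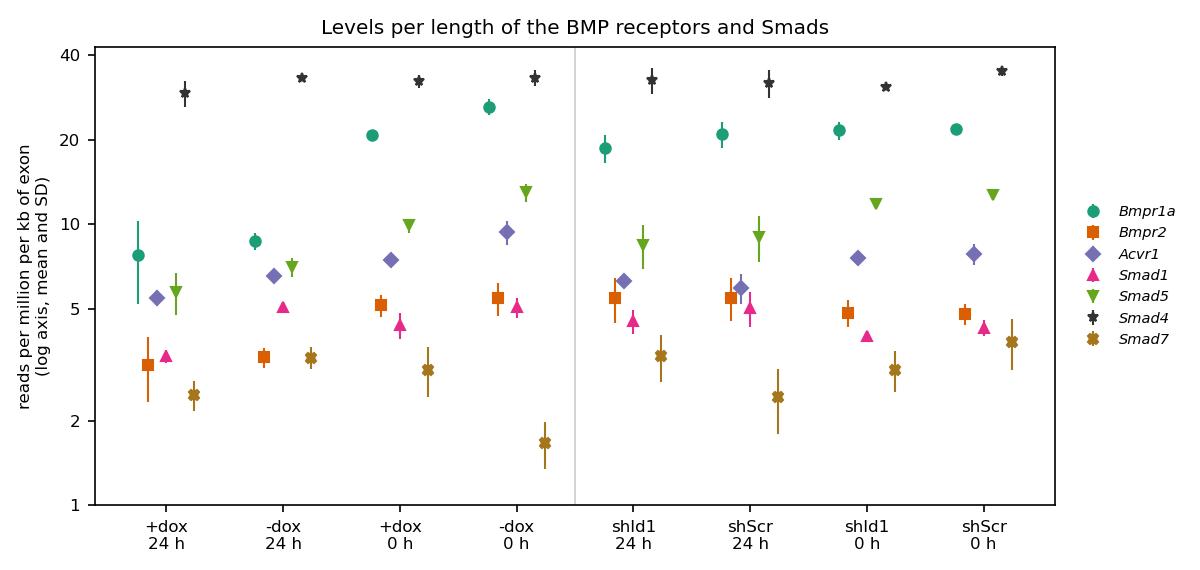
Mean levels of the 7 genes in RPM per kb of exon (log axis) in the 8 groups; bars are the SD of 3 libraries. *Smad4* lies on top in every group, and *Bmpr1a* drops towards *Smad5* and *Acvr1* in both ID1 populations at 24 h.

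The targeted gene was examined first. *Id1* was measured at 41.6, 106.6 and 73.0 in +dox cells at 0 h, against 10.5, 13.2 and 7.15 in -dox cells, a log2 fold change of 2.72 (SE 0.27, limma adjusted p = 2.51e-06). At 24 h the values were 105.9, 96.0 and 76.1 in +dox cells and 73.9, 67.5 and 59.7 in -dox cells. These groups did not overlap, yet the difference did not pass the test (0.46, adjusted p = 0.232). In *shId1* cells at 0 h *Id1* had 25.7, 19.7 and 39.0, against 60.7, 102.8 and 110.8 in *shScr* cells (-1.69, SE 0.38, adjusted p = 0.0183). At 24 h the *shId1* libraries had 17.6, 40.1 and 29.7 and the *shScr* libraries 27.9, 44.8 and 69.6, which overlapped (-0.67, adjusted p = 0.265). Thus the labelled difference in *Id1* mRNA passed the test at 0 h in both experiments and at 24 h in neither. The sources used here do not say whether reads of the lentiviral ID1 count towards the mouse gene.

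With ID1 induced, the inhibitory Smad showed the largest difference of the 7 genes at 0 h. In progenitors at 0 h, 3 of the 7 genes passed the test (adjusted p under 0.05): *Smad7* was higher in +dox cells, and *Smad5* and *Acvr1* were lower. Of all 10789 genes tested 34.3% passed in this comparison, 20.5% higher and 13.8% lower, so a count of 3 in 7 is close to that of genes at large. *Smad7* was measured at 12.7, 16.9 and 11.6 in +dox cells, against 8.75, 7.79 and 5.95 in -dox cells. All induced libraries lay above all uninduced ones. The log2 fold change was 0.83 (SE 0.16, adjusted p = 0.00117), and it passed in all 17 alternative analyses that kept the limit on p alone.

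*Smad5*, which carries the signal from the type I receptors, had 78.3, 70.5 and 71.9 in +dox cells and 103.6, 89.3 and 96.9 in -dox cells at 0 h. The groups did not overlap, and the log2 fold change was -0.39 (SE 0.11, adjusted p = 0.0148). *Acvr1*, the type I receptor also known as ALK2, had 38.1, 34.5 and 35.8 in +dox cells and 50.04, 44.4 and 41.4 in -dox cells, again without overlap (-0.32, SE 0.10, adjusted p = 0.0198). Both calls were lost without -dox replicate 1 (adjusted p = 0.0583 for *Smad5* and 0.0862 for *Acvr1*), without +dox replicate 2 (0.0535 and 0.071) and without +dox replicate 3 (0.0542 and 0.0632). With edgeR on recovered reads, where +dox cells at 0 h had only 1 library left, they were lost as well (0.253 and 0.268). *Bmpr1a* (125.4 to 136.3 in +dox cells, 159.2 to 178.7 in -dox cells) did not overlap either, but its change of -0.33 missed the threshold (adjusted p = 0.112). In a fit of the 6 libraries compared alone it passed (adjusted p = 0.00366). *Smad1* (-0.21, adjusted p = 0.127), *Bmpr2* (-0.08, 0.727) and *Smad4* (-0.04, 0.758) overlapped between the groups. The median change of the 7 genes was -0.21, against 0.00 for all genes. None of the 7 changed over 2-fold, where 5.27% of all genes did and passed.

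**Figure D2:**
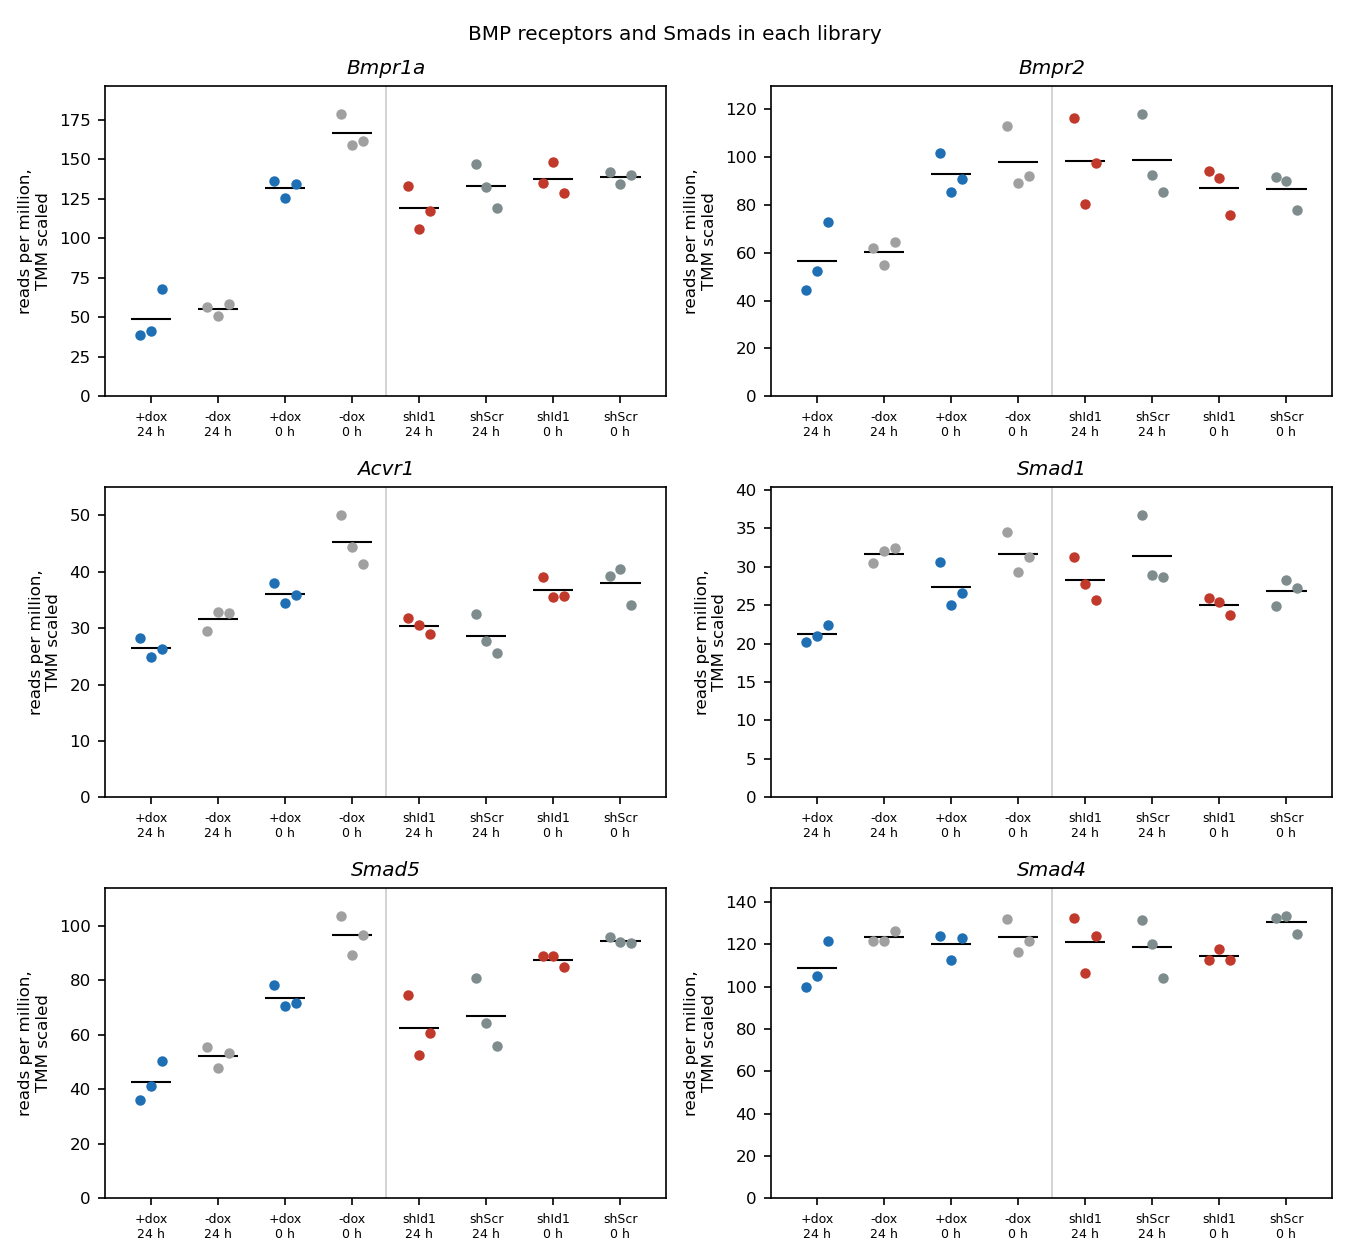
RPM (TMM scaled) of the 6 genes other than *Smad7* in each of the 24 libraries; points are libraries in order of replicate number, lines are group means, and the vertical line parts the ID1 from the shRNA experiment. *Bmpr1a* and *Bmpr2* are low in ID1 cells at 24 h, *Smad5* is lower at 24 h in every population, and *Smad1* at 24 h lies at 20.2 to 22.4 in +dox cells, below the 30.6 to 32.4 of -dox cells.

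At 24 h the gene that passed was *Smad1*, a receptor-regulated Smad like *Smad5*. It was measured at 20.2, 21.0 and 22.4 in +dox cells, against 30.6, 32.1 and 32.4 in -dox cells. The induced libraries lay together well below the uninduced ones. The log2 fold change was -0.57 (SE 0.10, adjusted p = 0.00122), and *Smad1* passed in all 17 alternative analyses of the same kind. It was the only one of the 7 to pass, where 21.6% of all genes did and 10.9% were lower. None of the 7 changed over 2-fold, against 2.11% of all genes. The other 6 had log2 fold changes between -0.43 and -0.12, with adjusted p of 0.0702 for *Smad7*, 0.0705 for *Smad5*, 0.074 for *Acvr1*, 0.141 for *Smad4*, 0.351 for *Bmpr1a* and 0.591 for *Bmpr2*. This count rested on 1 library. Without +dox replicate 3, which stood apart from the other two, 37.7% of all genes were called, and 6 of the 7 were called lower: *Smad1* together with *Bmpr1a* (-0.47, adjusted p = 6.58e-04), *Bmpr2* (-0.32, 0.0365), *Smad5* (-0.43, 0.00287), *Smad4* (-0.27, 0.014) and *Smad7* (-0.52, 0.0234). That replicate was the highest of its group in *Bmpr1a* (68.0, beside 38.6 and 41.1), *Bmpr2* (72.9, beside 44.5 and 52.2) and *Smad5* (50.5, beside 36.1 and 41.4). It was also the highest in *Smad4* (121.4, beside 99.9 and 104.9), *Smad7* (12.7, beside 10.1 and 10.7) and *Smad1* (22.4, beside 20.2 and 21.0). In *Acvr1* it lay between the others (26.4, beside 28.3 and 24.8).

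For *Smad7* the difference between +dox and -dox cells turned round with time. At 24 h it had 10.1, 10.7 and 12.7 in +dox cells and 14.3, 14.5 and 16.7 in -dox cells, so the induced libraries were now the lower ones, without overlap. The change at 24 h was -0.43 (SE 0.16) and did not pass by itself, but the interaction of doxycycline and time did (-1.26, SE 0.23, adjusted p = 0.00241). It was the only one of the 7 genes called for this interaction, against 10.5% of all genes, and it passed in all 22 alternative analyses of the same kind. *Smad1* gave -0.36 in the same test (adjusted p = 0.123). *Id1* itself had an interaction of -2.26 (adjusted p = 0.00121) and *Id3*, a related BMP target, one of -1.17 (adjusted p = 0.0215).

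Markers of cell types moved in the same comparisons. The 4 fibroblast markers in the table, among them the collagen VI genes *Col6a1* and *Col6a2*, summed to 312.5 to 378.6 in +dox cells and 233.6 to 262.1 in -dox cells at 24 h, and to 144.1 to 202.3 in +dox cells and 69.1 to 71.7 in -dox cells at 0 h. Their sum is mostly *Col6a1* (means of 261.9 in +dox and 182.9 in -dox cells at 24 h). Of the 4, 2 were called higher and 1 lower at 0 h, where *Col5a2* changed by -1.48 (adjusted p = 2.39e-04), and 2 higher and none lower at 24 h, where it changed by -0.63 without passing. The other 14 fibroblast markers listed were not analysed here. The 9 suprabasal markers summed to 1417 to 1493 in +dox cells and 2012 to 2310 in -dox cells at 24 h, and to 629.1 to 684.4 and 904.6 to 1149 in the same order at 0 h. Of these, 7 were called lower and none higher at 24 h, and 5 lower and 1 higher at 0 h. The suprabasal sum is mostly *Krtdap* (means of 1226 in +dox and 1652 in -dox cells at 24 h). Of the 10 basal keratinocyte markers 5 were called lower and none higher at 24 h (median -0.38). At 0 h 3 basal markers were called lower and 1 higher (median -0.07). The part of any of these lists in the changes of the BMP receptors and Smads was not tested.

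**Figure D3:**
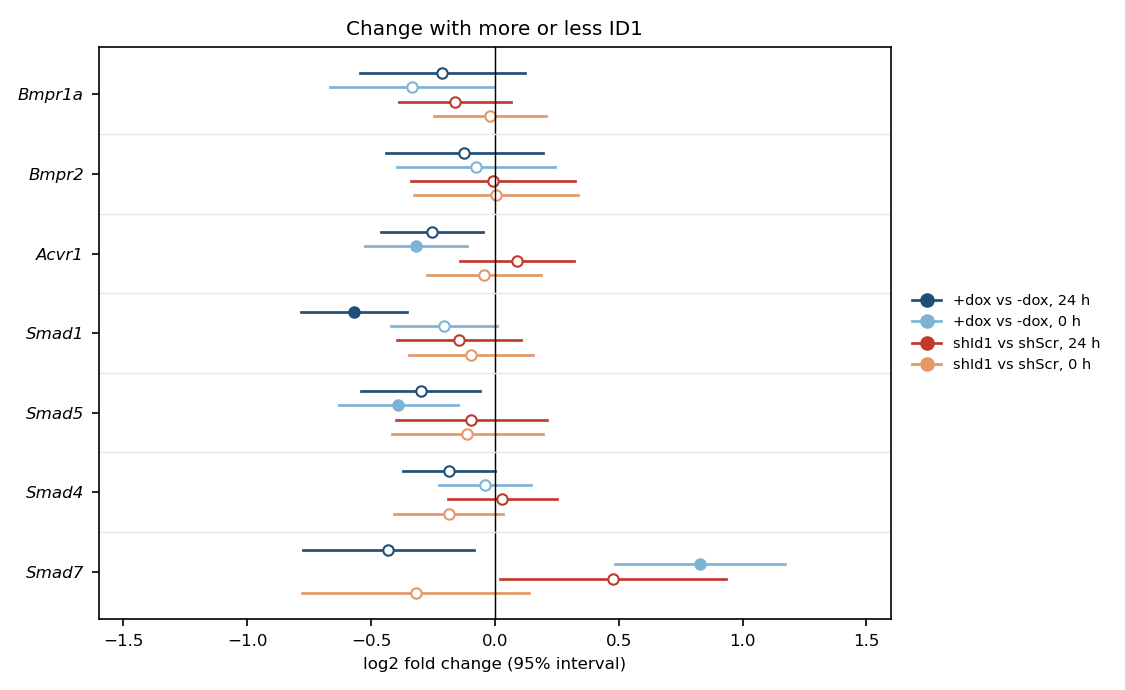
Log2 fold changes of the 7 genes in +dox against -dox cells and in *shId1* against *shScr* cells at 24 h and 0 h. Bars are 95% intervals, and filled points passed the adjusted p of 0.05. The difference in *Id1* mRNA itself passed at 0 h in both experiments and at 24 h in neither. *Smad7* lies on the right at 0 h and on the left at 24 h with doxycycline, and no point of the shRNA comparisons is filled.

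After silencing of *Id1* no member of the set passed the test in the main fit of all 12 libraries, at either time. At 0 h none of the 7 was called in the main limma fit (none at an unadjusted p under 0.05, and none by edgeR), against 7.47% of all genes. The log2 fold changes lay between -0.32 (*Smad7*) and 0.01 (*Bmpr2*), and the 95% intervals of the other 6 genes lay within -0.41 and 0.34. *Smad4*, the partner of all receptor-regulated Smads, had 112.7, 117.9 and 112.7 in *shId1* cells and 132.6, 133.3 and 125.1 in *shScr* cells. The silenced libraries were all lower, by 0.19 on the log2 scale (SE 0.10, adjusted p = 0.311). Libraries of the same replicate number had correlated deviations in this comparison (r of 0.705, 0.141 and 0.355). However, *shId1* replicates 2 and 3 were closer to *shScr* libraries of another number (0.541 and 0.409). With the number as a block among the 6 libraries the change of *Smad4* passed (adjusted p = 0.0342), as did 3025 of all genes in place of 806. With a weight for each of the 12 libraries (array weights) it passed too (-0.20, limma adjusted p = 0.0259), as did 3582 of all genes. *Smad5* did not overlap either, with 85.0 to 89.0 in *shId1* cells and 93.8 to 96.0 in *shScr* cells (-0.11, adjusted p = 0.706).

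At 24 h again none of the 7 was called in the main limma fit (1 at an unadjusted p under 0.05), against 14.6% of all genes. EdgeR had only 1 *shId1* library left at 24 h, so it cannot decide on these genes. *Smad7* had 11.99, 17.3 and 16.8 in *shId1* cells and 8.79, 9.92 and 14.2 in *shScr* cells. The replicates numbered 2 and 3 of *shId1* lay above all *shScr* libraries and replicate 1 did not. The log2 fold change was 0.48 (SE 0.21, adjusted p = 0.153), and with the replicate number as a block among the 6 libraries compared it passed (adjusted p = 0.0369). With array weights among all 12 libraries it passed too (0.61, limma adjusted p = 0.00294), beside 4176 of all genes. Without the replicates numbered 1 it was 0.50 (adjusted p = 0.0622). The other 6 genes changed by -0.16 (*Bmpr1a*) to 0.09 (*Acvr1*). For the interaction of silencing and time the main fit called none (1 at an unadjusted p under 0.05), against 7.51% of all genes. The largest estimate was that of *Smad7* (0.80, SE 0.30, adjusted p = 0.132). With array weights *Smad7* (0.91, limma adjusted p = 0.00285) and *Smad4* (0.28, 0.033) passed for it, beside 3456 of all genes. The fibroblast markers summed to 59.3 to 106.4 in *shId1* and 105.3 to 113.9 in *shScr* cells at 24 h, and the suprabasal markers to 1776 to 2266 and 1849 to 2920. Most of the suprabasal sum was *Krtdap* (means of 1553 in *shId1* and 2039 in *shScr* cells). Of 9 suprabasal markers 1 was called higher and none lower at 24 h, and 4 higher and none lower at 0 h. Their part was not tested. The estimate of *Smad7* has the opposite sign to its interaction with doxycycline. Whether the 2 experiments differ in it was not tested.

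**Figure D4:**
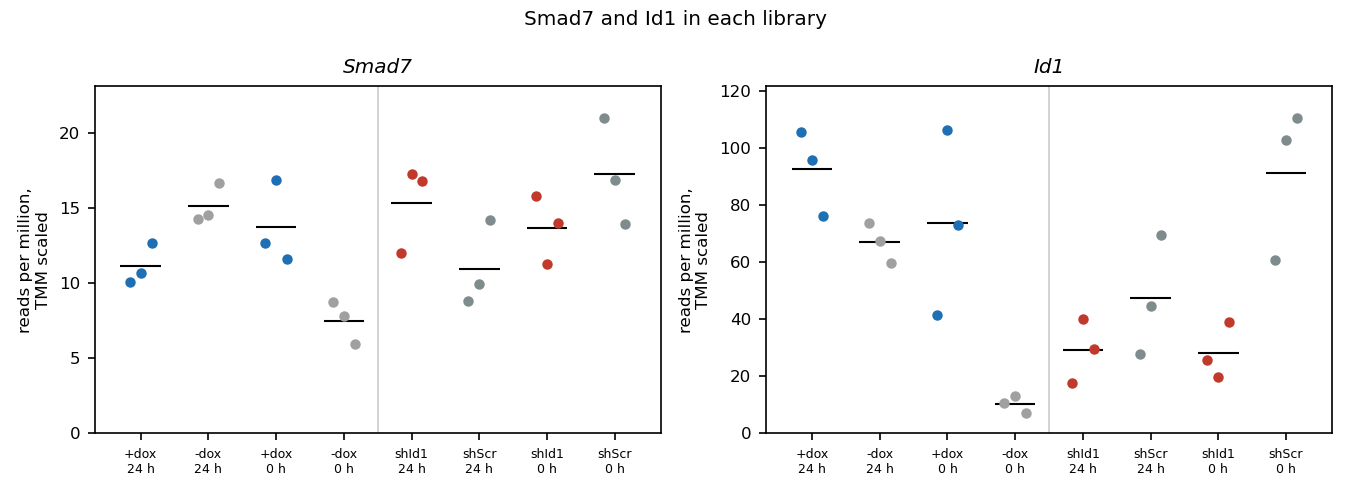
RPM (TMM scaled) of *Smad7* and *Id1* in each library; points are libraries, lines are group means, and the vertical line parts the ID1 from the shRNA experiment. In -dox cells both genes are higher at 24 h than at 0 h, and in *shScr* cells the means of both are lower at 24 h.

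After 24 h in calcium a receptor and a receptor-regulated Smad were lower in all 4 populations. *Acvr1* and *Smad5* were called lower at 24 h than at 0 h in +dox, -dox, *shId1* and *shScr* cells, which share no libraries. Of the 10761 genes tested in both experiments 15.3% were called lower in all 4. *Acvr1* changed by -0.44 in +dox, -0.51 in -dox, -0.27 in *shId1* and -0.40 in *shScr* cells (adjusted p = 7.76e-04, 2.20e-04, 0.0454 and 0.00567). The call in *shId1* cells was lost without any 1 of 5 libraries (each *shId1* library except replicate 1 at 24 h), with adjusted p of 0.065 to 0.141. It was lost without all libraries numbered 1 (0.0517) too. With edgeR, where *shId1* cells at 24 h had only 1 library left, the change was -0.24. *Smad5* changed by -0.79, -0.88, -0.49 and -0.51 in the same order (adjusted p = 1.54e-05, 4.07e-06, 0.0093 and 0.00713). In *shScr* cells it had 80.8, 64.5 and 55.8 at 24 h, against 96.0, 94.2 and 93.8 at 0 h, and in -dox cells 55.6, 47.8 and 53.3 at 24 h, against 103.6, 89.3 and 96.9 at 0 h. No library at 24 h reached the values at 0 h in either population.

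*Smad1* was called in 1 of the 4 populations. It changed by 0.17 in *shId1* cells (adjusted p = 0.229), by 0.22 in *shScr* cells (0.120) and by 0.00 in -dox cells (0.975), and it fell in +dox cells, by 0.36 (SE 0.10, adjusted p = 0.00454). That call was lost under quantile normalization (adjusted p = 0.128). The ratio of *Smad5* to *Smad1*, each per kb, was 1.69 ± 0.20 at 24 h against 2.27 ± 0.11 at 0 h in +dox cells and 1.39 ± 0.14 against 2.57 ± 0.04 in -dox cells (SD, n = 3). It was 1.87 ± 0.24 at 24 h against 2.95 ± 0.07 at 0 h in *shId1* cells and 1.79 ± 0.13 against 2.99 ± 0.23 in *shScr* cells. The ratios at 24 h lay below those at 0 h without overlap in each population, and no test was made of them.

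The receptor genes *Bmpr1a* and *Bmpr2* were lower after calcium in both populations of the ID1 experiment and passed in neither shRNA population. *Bmpr1a*, the main type I BMP receptor of keratinocytes, had 38.6, 41.1 and 68.0 in +dox cells at 24 h, against 136.3, 125.4 and 134.2 at 0 h (-1.46, SE 0.16, adjusted p = 8.91e-07). In -dox cells it had 56.6, 50.9 and 58.2 at 24 h, against 178.7, 159.2 and 161.8 at 0 h (-1.58, SE 0.16, adjusted p = 2.51e-07). It was the only one of the 7 genes with a calcium change over 2-fold in these populations, against 25% of all genes in +dox and 30.8% in -dox cells. In *shId1* and *shScr* cells none of the 7 changed so far, against 15.6% and 18.8%. *Bmpr2* was lower by 0.74 in +dox cells (adjusted p = 3.88e-04) and by 0.69 in -dox cells (6.17e-04), with 54.8 to 64.4 at 24 h against 89.2 to 113.0 at 0 h in the -dox libraries. In *shId1* and *shScr* cells *Bmpr1a* changed by -0.21 and -0.07 and *Bmpr2* by 0.16 and 0.18, none of which passed. For *Bmpr1a* in *shId1* cells the call depended on the analysis, as it passed without the replicates numbered 1 (-0.30, adjusted p = 0.0147). With edgeR, where only replicate 2 of *shId1* cells was left at 24 h, its change was -0.40.

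*Smad4*, on which all these signals converge, passed in none of the 4 populations. Its calcium changes were -0.15 in +dox, 0.00 in -dox, 0.08 in *shId1* and -0.14 in *shScr* cells, and their 95% intervals spanned -0.36 to 0.30 at most. Without +dox replicate 3 at 24 h it was called lower in +dox cells (-0.23, adjusted p = 0.0148), and with edgeR it was called lower in *shScr* cells (-0.24, 0.031).

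*Smad7* moved in opposite directions in the control populations. In -dox cells it had 14.3, 14.5 and 16.7 at 24 h, against 8.75, 7.79 and 5.95 at 0 h, and rose by 0.98 (SE 0.16, adjusted p = 5.31e-05). In *shScr* cells it had 8.79, 9.92 and 14.2 at 24 h, against 21.0, 16.8 and 14.0 at 0 h, and fell by 0.64 (SE 0.21, adjusted p = 0.019), with replicate 3 of both times overlapping. The call in *shScr* cells was lost without replicate 1 at 0 h (adjusted p = 0.0837), replicate 1 at 24 h (0.0693) or replicate 2 at 24 h (0.0627), without all replicates numbered 1 (0.0895) and with edgeR (0.0534). In +dox cells (-0.28, adjusted p = 0.133) and in *shId1* cells (0.15, 0.551) the change did not pass.

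In all, 5 of the 7 genes fell after calcium in +dox cells, where 74.7% of all genes were called (39.1% lower). In -dox cells 4 fell and 1 rose, with 75.9% of all genes called, 38.3% lower and 37.6% higher. In *shId1* cells 2 fell, where 57.5% were called, 28% of all genes lower. In *shScr* cells 3 fell, where 60.7% were called and 30.1% were lower. The median change of the 7 genes was -0.44, -0.51, 0.08 and -0.14 in this order, beside medians of all genes between -0.05 and 0.02. The suprabasal markers, whose part was not tested, summed to 1417 to 2920 in the libraries at 24 h, against 584.7 to 1149 at 0 h. All 9 were called higher in *shId1* and in *shScr* cells, against 4 higher and 1 lower in +dox cells and 4 higher and 3 lower in -dox cells, where *Ivl* (-0.62), *Tgm3* (-1.12) and *Dsc1* (-0.72) were called lower. The suprabasal sum is mostly *Krtdap* (means of 1652 at 24 h and 771.3 at 0 h in -dox cells). The median change of the 9 was 0.35 in +dox, 0.22 in -dox, 1.80 in *shId1* and 2.77 in *shScr* cells.

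**Figure D5:**
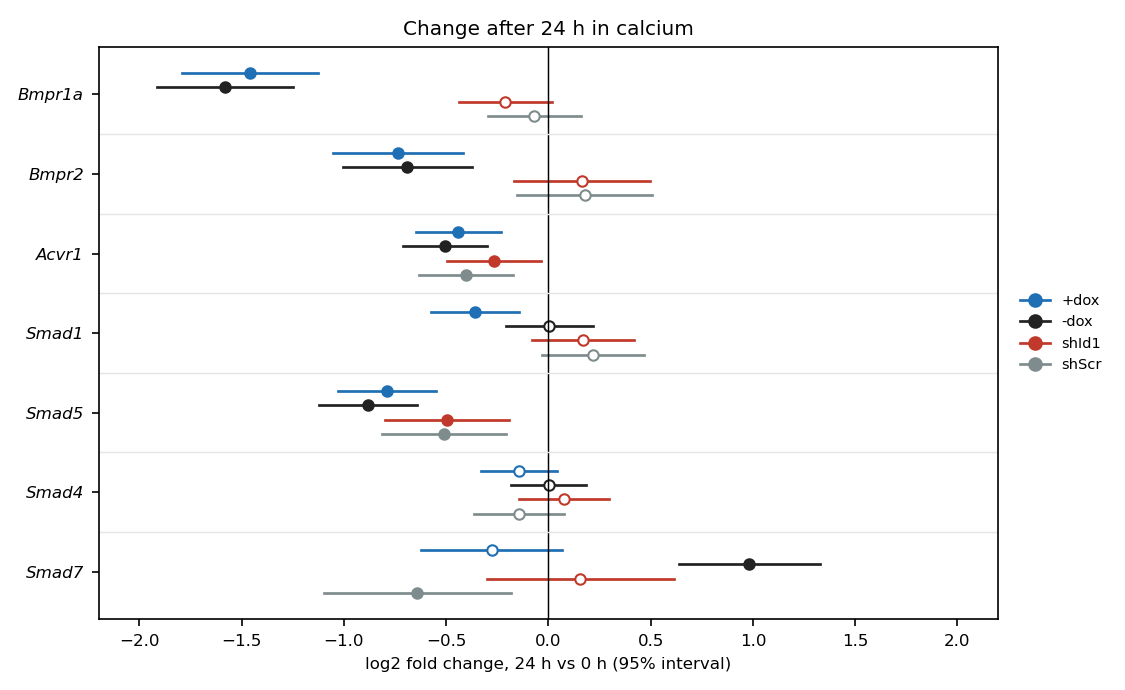
Log2 fold changes of the 7 genes after 24 h in calcium against 0 h in the 4 populations; bars are 95% intervals, and filled points passed the adjusted p of 0.05. *Bmpr1a* and *Bmpr2* are filled and on the left in both ID1 populations, *Acvr1* and *Smad5* in all 4, and *Smad7* on the right in -dox cells and on the left in *shScr* cells.

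The control populations were compared directly in a fit of all 24 libraries. They differ in construct and experiment, which cannot be told apart. At 0 h 2 of the 7 genes passed, against 36.6% of all genes. *Smad7* was lower in -dox cells (5.95 to 8.75) than in *shScr* cells (14.0 to 21.0), by 1.15 on the log2 scale (SE 0.19, adjusted p = 9.84e-05), beside *Id1* at 7.15 to 13.2 and 60.7 to 110.8. *Acvr1* was higher by 0.25 (adjusted p = 0.0491), a call lost in 8 of 16 alternative analyses, among them those without *shScr* replicate 1 or 3 or -dox replicate 1 or 2 (adjusted p up to 0.225). At 24 h 4 passed, against 63.7%. *Bmpr1a* (-1.26, SE 0.14, adjusted p = 2.33e-07) and *Bmpr2* (-0.69, SE 0.16, 8.42e-04) were lower in -dox cells and passed in every alternative analysis with the limit on p alone. Over 2-fold, *Smad7* at 0 h (6.41% of all genes) and *Bmpr1a* at 24 h (16% of all genes) were the ones called. *Smad5* (-0.34, adjusted p = 0.0266) was lower too, but the call was lost without *shScr* replicate 1 (0.194) or -dox replicate 2 (0.109), in a fit of the 6 libraries alone (0.0542) and with edgeR (0.189). *Smad7* (0.47, adjusted p = 0.0381) was higher, and that call was lost without any single -dox library (0.0522 to 0.118), without *shScr* replicate 1 (0.177) or 2 (0.109), and with edgeR (0.159).

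The difference between the calcium changes of -dox and *shScr* cells was tested after the changes themselves had been seen. It passed for 3 of the 7 genes, against 52.8% of all genes: *Bmpr1a* (-1.51, SE 0.20, adjusted p = 3.67e-06), *Bmpr2* (-0.87, SE 0.23, 0.00306) and *Smad7* (1.62, SE 0.27, 5.16e-05). These passed in all 21 alternative analyses with the limit on p alone. *Smad5* (-0.37, adjusted p = 0.0978), *Smad1* (-0.21, 0.235), *Smad4* (0.14, 0.381) and *Acvr1* (-0.10, 0.55) did not. The fibroblast markers summed to 233.6 to 262.1 in -dox and 105.3 to 113.9 in *shScr* cells at 24 h, and to 69.1 to 71.7 and 38.4 to 55.7 at 0 h. Most of the sum at 24 h was *Col6a1* (means of 182.9 and 75.8). Of the 4 fibroblast markers 1 was called higher and 1 lower for the difference of the calcium changes (median 0.12). In -dox against *shScr* cells 2 were called higher and none lower at each time. Of the 9 suprabasal markers 1 was called higher and 5 lower for the difference of the calcium changes (median -2.25), 6 higher in -dox cells at 0 h (median 1.44), and 3 higher and 4 lower at 24 h. The part of either in these differences was not tested.

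The rest of the pathway was described from lists of ligands (4 of 16 genes in the table), secreted antagonists and modulators (6 of 19), other BMP receptors and co-receptors (6 of 11), the activin and TGF-beta arm (9 of 12), intracellular regulators (25 of 28) and BMP target genes (7 of 17). *Smad9*, the third receptor-regulated Smad of BMPs, was not analysed here. In +dox cells at 0 h, 4 of 7 target genes, *Id1* among them, were higher and 1 lower (median 0.74, against 0.00 for all genes, of which 20.5% were higher and 13.8% lower). *Id2*, a direct BMP target related to *Id1*, was higher by 1.73 (adjusted p = 3.11e-06), *Id3* by 0.74 (0.0145) and the homeobox gene *Dlx3* by 1.00 (1.37e-04), while *Dlx5* was lower (-1.42, 1.81e-04). Of 25 regulators 6 were higher and 1 lower (median 0.05), a share of higher genes near that of all genes. *Smurf1*, a ubiquitin ligase that marks BMP Smads and receptors for degradation, was higher by 0.73 (adjusted p = 6.71e-05), and *Tob2*, a relative of the Smad repressor *Tob1*, was lower (-0.57, 0.0012). The ligand genes *Bmp8a* (1.37, adjusted p = 5.23e-04) and *Bmp7* (0.82, 0.00948) were higher, at means of 3.01 and 1.97 RPM in +dox cells.

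At 24 h in +dox against -dox cells, *Id2* (0.98, adjusted p = 0.00129) and *Dlx3* (0.62, 0.00902) were the 2 of 7 target genes still higher, and *Id3* was measured at -0.43 (0.161). Of 25 regulators 1 was higher and 3 were lower (median -0.04, against -0.01 for all genes, of which 10.6% were higher and 10.9% lower), led by *Tgif1*, a repressor of TGF-beta responses (-0.69, adjusted p = 9.75e-05). In the activin and TGF-beta arm 2 of 8 genes tested were higher and 3 lower. They included *Inhbb*, which encodes an activin subunit (0.69, adjusted p = 1.02e-04), and *Tgfbr2*, the type II receptor of TGF-beta (-0.55, 8.51e-04).

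In *shId1* cells at 0 h, the activin and TGF-beta arm had 3 genes higher and 1 lower of 9 (median -0.03, against 0.00 for all genes, of which 4.03% were higher and 3.44% lower). The activin type I receptor gene *Acvr1b* was higher by 0.60 (adjusted p = 6.89e-04) and *Tgfbr2* was lower (-0.66, 0.0253). *Id2* (-0.28, adjusted p = 0.225) and *Id3* (-0.09, 0.934) did not pass. At 24 h 5 of 25 regulators were higher and 2 lower (median 0.07, against 0.01 for all genes, of which 7.9% were higher and 6.72% lower). *Pmepa1*, a feedback inhibitor of TGF-beta signalling, was higher by 1.20 (adjusted p = 0.00291), the Smad corepressor *Skil* by 0.50 (0.00946), and *Tob2* was lower (-1.19, 4.14e-04). *Bmp3*, a BMP family ligand known to oppose other BMPs, was higher by 2.72 (adjusted p = 8.58e-04) and *Fst*, the activin and BMP binding protein follistatin, by 1.13 (0.00688). *Id2* was higher by 0.53 at 24 h (adjusted p = 0.0171).

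After calcium, other receptor genes fell beside *Bmpr1a* and *Bmpr2* in the ID1 cells. Of 6 other BMP receptors and co-receptors 5 were lower in +dox cells (median -0.70) and 4 in -dox cells (-0.63), where 39.1% and 38.3% of all genes were lower. *Acvr2a*, a type II receptor shared by activins and BMPs, changed by -1.22 in +dox and -1.27 in -dox cells (adjusted p = 3.37e-06 and 1.65e-06). *Bmpr1b*, a further BMP type I receptor, changed by -0.78 and -0.64 (adjusted p = 5.04e-04 and 0.00239). In *shId1* cells 1 of these 6 was higher and 1 lower (median -0.28) and in *shScr* cells 1 was higher and 2 were lower (-0.11), where 29.5% and 30.6% of all genes were higher and 28% and 30.1% lower. The co-receptor gene *Tgfbr3* changed by -0.84 in +dox and -1.41 in -dox cells and by 0.66 in *shId1* and 1.79 in *shScr* cells, all past the test. *Id1* changed by 0.42 in +dox (adjusted p = 0.167), 2.68 in -dox (2.73e-07), 0.03 in *shId1* (0.95) and -0.99 in *shScr* cells (0.0376).

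Across all 24 libraries, *Bmpr1a* and *Bmpr2* varied together (Pearson r of 0.909 on the log2 scale), as did *Bmpr1a* and *Smad5* (0.894) and *Acvr1* and *Smad5* (0.813). *Smad1* and *Smad5* had an r of 0.389. *Smad7* was weakly correlated with the other 6 genes (-0.23 to 0.03). With *Id1* it had 0.583, at rank 532 of 10817 genes, whereas the other 6 genes had -0.59 to -0.26. These values describe 24 libraries of 8 groups in 2 experiments, so they carry group differences and depth as well. The genes most like *Bmpr1a* were *Prpf18* (0.991), *Pdcl* (0.991) and *C330007P06Rik* (0.989), those most like *Bmpr2* were *Rps6ka3* (0.968), *Fcho2* (0.963) and *Edem3* (0.962), and those most like *Smad5* were *Cnot1* (0.978), *Arid2* (0.977) and *Caprin1* (0.975). For *Acvr1* they were *Top3a* (0.909), *Ubxn8* (0.888) and *Khdrbs1* (0.887), for *Smad1* *Mgea5* (0.838), *Kdm2a* (0.828) and *Kdm3a* (0.824), and for *Smad4* *Golga3* (0.858), *Nsd3* (0.855) and *Ranbp9* (0.819). *Smad7* was most like *Ptgs2*, which encodes the prostaglandin synthase COX-2 (0.905), the integrin gene *Itgb6* (0.858) and the cytokine gene *Clcf1* (0.825).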

How the data were processed

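Poly(A) RNA was sequenced as stranded libraries. Per the labels, base calls were converted with bcl2fastq 2.19.1.403 and the build was GRCm38; no source used here names the aligner. The authors deposited 1 table of a normalized signal, made from gene counts with edgeR TMM factors. Its title says FPKM, but values of a library are whole multiples of one step, so they are RPM of TMM-scaled library size, not divided by gene length. Whole reads were recovered for the 18 libraries whose step could be checked, and tests on reads used these only. Every value lay within 0.05 of a whole read at the estimated step in all 24 libraries, so this closeness did not set the 18 apart. The tests on reads had 1 library each of +dox at 0 h and *shId1* at 24 h, assumed to vary like the other groups.

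The members and gene lists were chosen with earlier results of these data known. The 12 libraries of each experiment were fitted with limma 3.58.1 (R 4.3.3) on log2(value + 0.5), with trend and robust moderation, over genes that reached a value of 1 in 3 or more libraries. All 24 libraries were used for -dox against *shScr*. The pseudocount makes fold changes of low genes too small. Calls needed a two-sided Benjamini-Hochberg adjusted p under 0.05 over all genes tested. The labels call the 3 libraries of a group biological replicates but do not say whether cells, cultures or animals differed, so p-values measure the spread between these libraries. The main fits held the group alone and left out any pairing, and the replicate number entered only in alternatives, as a block. Replicate numbers were taken to pair the libraries of *shId1* and *shScr*, since the deviations of same-numbered libraries all correlated over 0.1. The r were 0.705, 0.141 and 0.355 at 0 h, and 0.711, 0.329 and 0.302 at 24 h. Yet *shId1* replicates 2 and 3 at 0 h and 2 at 24 h were closer to a *shScr* library of another number (r of 0.541, 0.409 and 0.651). In each other comparison the r of some number was under 0.1. In +dox against -dox cells at 0 h the same-number r were 0.283, 0.478 and -0.121, and these were not treated as paired.

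Alternatives were other pseudocounts, filters, scalings and fits, array weights estimated gene by gene, leaving out each library, edgeR 4.0.16 on recovered reads and a limit of 2-fold. Named genes were the members, Id1, Id2 and Id3, up to 4 called genes per list and comparison with the lowest adjusted p, and the 3 genes most like each member.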

Additional observations from a re-analysis of the deposited data

Results flagged for a closer look

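In 4 cases the effect of the same contrast differed between groups by a test of the difference itself. *Smad7* responded differently to doxycycline at 24 h and at 0 h (interaction of -1.26 on the log2 scale, limma adjusted p = 0.00241), being lower in +dox than in -dox cells in all libraries at 24 h and higher in all at 0 h. The change after 24 h in calcium differed between -dox and *shScr* cells for *Bmpr1a* by -1.51 (adjusted p = 3.67e-06), for *Bmpr2* by -0.87 (0.00306) and for *Smad7* by 1.62 (5.16e-05). Of all genes, 10.5% were called for the interaction of doxycycline and time. For the difference of the calcium changes 52.8% of all genes were called, and this test was made after the changes themselves had been seen. The -dox and *shScr* cells belong to different experiments and constructs, which cannot be told apart. With 3 libraries per group, single libraries far from their group were not tested for.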

How the results depend on the processing

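Counts of the 7 genes called were recomputed under each alternative. Asking also for a change over 2-fold left 0 in +dox against -dox cells at both times and in the calcium comparisons of *shId1* and *shScr* cells, and 1 in those of +dox and -dox cells and in -dox against *shScr* cells at both times. Array weights called 5 (0 h) and 6 (24 h) in +dox against -dox cells, 1 in *shId1* against *shScr* cells at each time, 4 for calcium in *shId1* cells, and 2 for each interaction with time. Over all genes, array weights called 5805 (0 h) and 5067 (24 h) of 10789 in +dox against -dox cells. In *shId1* against *shScr* cells they called 3582 and 4176 of 10790. For the interactions with time they called 3456 (*shId1*) and 3489 (doxycycline). The replicate block among the compared groups called 1 in *shId1* against *shScr* cells at each time, beside 3025 (0 h) and 2430 (24 h) of all genes. In the fit of 12 libraries it changed no call of the 7 genes. EdgeR called 1 in +dox against -dox cells at 0 h and 2 in -dox against *shScr* cells at 24 h. Quantile and median-ratio scaling called 1 in -dox against *shScr* cells at 0 h.

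Leaving out single libraries gave 1 to 3 genes (0 h) and 1 to 6 (24 h) in +dox against -dox cells, 5 to 6 for calcium in +dox cells, 5 in -dox, 1 to 3 in *shId1* and 2 to 3 in *shScr* cells, 1 to 2 (0 h) and 2 to 4 (24 h) in -dox against *shScr* cells, 3 to 4 for the difference of their calcium changes, 1 for the interaction with doxycycline, and 0 in the other shRNA comparisons. Over all genes the same omissions called 2619 to 3168 (0 h) and 1340 to 4068 (24 h) in +dox against -dox cells. For calcium they called 7477 to 8316 genes in +dox and 7662 to 7888 in -dox cells. The counts were 5418 to 6476 in *shId1* and 5770 to 6682 in *shScr* cells. In -dox against *shScr* cells they called 2946 to 3753 (0 h) and 6087 to 6830 (24 h). The difference of their calcium changes gave 5189 to 5764 and the interaction with doxycycline 709 to 2002. Of 1771 single values, 1598 kept direction and call, 73 that were called under neither setting changed sign, 61 lost the call and 39 gained it. No called value reversed.

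Over all genes, 806 were called in *shId1* against *shScr* cells at 0 h, with 1265 in a fit of all 24 libraries, 1408 with the replicate block in the fit of 12, 3025 with the block in the 6 libraries compared, 3582 with array weights, 1628 without the replicates numbered 1, 1714 with edgeR and 314 to 787 without single libraries. At 24 h 1577 were called, with 971 in a fit of the compared groups only, 2430 with the block in that fit, 4176 with array weights, 1044 with edgeR and 952 without *shId1* replicate 3. In +dox against -dox cells 3701 were called at 0 h (5805 with array weights, 1583 with edgeR), and 2330 at 24 h (1500 in the compared groups only, 5067 with array weights, 4068 without +dox replicate 3, and 1340 to 1499 without +dox replicate 2, -dox replicate 2 or -dox replicate 3). For the interaction of *shId1* and time 810 were called (1308 with all 24 libraries, 1299 with the block, 3456 with array weights, 1497 without the replicates numbered 1, and 313 to 968 without single libraries), and for that of doxycycline and time 1128 (3489 with array weights, 403 with edgeR, 2002 without +dox replicate 3 at 24 h, and 709 to 713 without -dox replicate 3 or +dox replicate 3 at 0 h or -dox replicate 2 at 24 h). In -dox against *shScr* cells at 0 h array weights called 6566 in place of 3963. The limit of 2-fold lowered every count over 1.5 times, to between 209 and 3319. The share of higher calls moved under quantile normalization to 48.9% in place of 59.7% in +dox against -dox cells at 0 h, and to 35.9% in place of 22.7% for its interaction with time. A stricter limit lowers counts by construction, and other causes were not tested.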
